A study of Sus scrofa with 12 samples.

Results

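Metallothioneins are small proteins rich in cysteine that hold zinc and copper in the cell, and the liver is one of their main sites of synthesis. When zinc is plentiful, the zinc sensor MTF1 (metal regulatory transcription factor 1) enters the nucleus and switches on metallothionein genes and the zinc exporter gene SLC30A1. In the liver, glucocorticoids and interleukin 6 are also known to raise metallothionein transcription. The genes described here are 9 of the 31692 gene identifiers in the liver mRNA libraries. They are the metallothionein genes MT1A, MT-2B and MT-III, the unnamed loci LOC100739663 and LOC102166944, the zinc sensor MTF1 and the transporter genes SLC30A1, SLC30A10 and SLC39A4. The 9 genes were selected on earlier results of the comparison of the breeds, so their breed differences are given as a description with no test. All 9 were found in every library and all 9 passed the filter on low values, which asked for 0.5 RPKM or more in 3 or more libraries.

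The liver of 3 Jinhua (JH) pigs, a slowly growing Chinese breed that deposits much fat, was compared with that of 3 Landrace (LD) pigs, a lean breed of fast growth that served as the control. All pigs were uncastrated males sampled at 70 days, with no treatment named in the labels, and each gave 1 mRNA library. Expression is in RPKM, reads scaled to gene length and library size, so levels of different genes are compared per length. Whole reads were recovered from these values, with 5744909 to 7914515 reads per library behind the RPKM.

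In the RefSeq gene table of the assembly Sscrofa11.1, the order of the protein coding genes is BBS2, MT4, MT3, MT-2B, MT1D, LOC100739663, LOC102166944, MT1A and NUP93. Both unnamed loci thus lie inside the metallothionein cluster, between MT1D and MT1A. The mRNA files have no rows named MT4, MT3 or MT1D. The symbol MT-III, under which the files list a metallothionein, is not in that table, and the other 8 genes are. The authors aligned reads to an earlier build, so no coordinates are given. Metallothionein genes are close copies of each other with short transcripts, and reads of 50 bases can be shared between them, so the split of the signal among the 5 genes is uncertain.

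MT1A, the metallothionein with the highest mean RPKM, was at 12311, 17210.1 and 13274 RPKM in JH1, JH2 and JH3. In LD1, LD2 and LD3 it was at 1139, 423 and 572 RPKM. Every JH pig was above every LD pig, and the lowest JH value was 10.8 times the highest LD value. JH averaged 14265 ± 2596 and LD 711 ± 378 RPKM (SD, n = 3 each), a ratio of 20.1. The fitted log2 ratio (JH over LD, also called log2 fold change, with its standard error SE) came to 4.44 (SE 0.37), and 12 of the 12991 tested genes had a higher one. MT1A ranked 4 among all genes by RPKM in each JH library. In LD1, LD2 and LD3 it ranked 52, 184 and 124.

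MT-2B was at 7090, 12514 and 5264 RPKM in JH1, JH2 and JH3. It was at 1309, 1081 and 969 RPKM in LD1, LD2 and LD3. The LD pigs were close to each other, with a highest value 1.35 times the lowest, and all lay below the JH pigs, which differed by 2.38 times. JH averaged 8289 ± 3771 and LD 1119 ± 173 RPKM (SD, n = 3 each), a ratio of 7.40 and a log2 ratio of 2.80 (SE 0.34).

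MT-III carries the older name of a metallothionein known mainly from the brain. It was at 5701, 9066 and 7334 RPKM in the JH libraries 1 to 3 and at 375, 301 and 1014 RPKM in the LD libraries 1 to 3. LD3 stood above the other LD pigs but below the lowest JH pig by 5.62 times. JH averaged 7367 ± 1683 and LD 563 ± 392 RPKM (SD, n = 3 each), a ratio of 13.1 and a log2 ratio of 3.90 (SE 0.44).

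LOC100739663 was at 1561, 1903 and 1504 RPKM in JH and at 191, 62.4 and 162 RPKM in LD, in the order of the replicates. LOC102166944 was at 1181, 2240 and 1638 RPKM in JH and at 255, 165 and 453 RPKM in LD. Both loci moved in the direction of the named metallothioneins, and the JH and LD values of each did not overlap. The log2 ratio was 3.72 (SE 0.40) for LOC100739663 and 2.61 (SE 0.40) for LOC102166944. The value of LOC102166944 rests on a gene model that may be only 107 bases long, the shortest length that makes its reads whole, with 139 to 1859 reads per library.

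**Figure D1:**
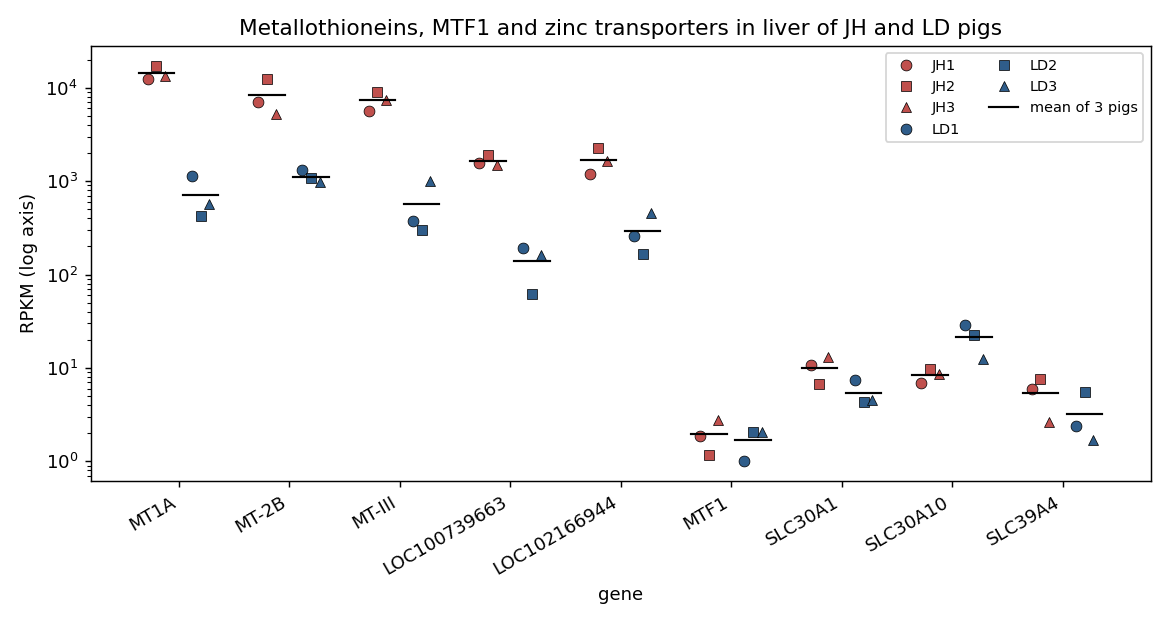
RPKM (log axis) of the 9 genes in each library, red for JH and blue for LD, with a symbol for each pig and a bar for the mean of 3 pigs. The JH points of the 5 metallothionein genes and loci lie above all LD points, for MT1A with a lowest JH value of 12311 and a highest LD value of 1139 RPKM, while SLC30A10 is lower in JH and MTF1, SLC30A1 and SLC39A4 overlap.

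The sum over the 5 metallothionein genes and loci was 27844, 42933 and 29014 RPKM in JH1, JH2 and JH3 and 3269, 2031 and 3171 RPKM in LD1, LD2 and LD3. The mean sum of JH was 11.8 times that of LD. The sum held 4.41% to 6.70% of all RPKM in the JH libraries and 0.362% to 0.585% in the LD libraries. As recovered reads, the same genes took up 1.27% to 1.92% of the recovered library totals in JH and 0.0873% to 0.143% in LD. The paper reports more clean reads for each library than these totals, so the percents do not refer to all clean reads. Read numbers were therefore large, with 72825 to 149160 metallothionein reads in the libraries of JH pigs and 6894 to 11302 in those of LD pigs, and counting error is small beside the spread between pigs. Since several reads can come from 1 molecule, read numbers and their intervals cover counting error only.

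The make-up of the metallothionein signal also differed between the libraries. In all 3 JH pigs MT1A was the leading gene, with 44.2%, 40.1% and 45.7% of the summed RPKM. In LD1 and LD2 the leading gene was MT-2B, with 40.0% and 53.2%. In LD3 MT-III had 32.0% and MT-2B 30.6%. The share of MT1A in LD was 34.8%, 20.8% and 18.0%, below every JH pig. The ratio of MT1A to MT-2B was 1.74, 1.38 and 2.52 in JH and 0.870, 0.391 and 0.590 in LD. These ratios are taken within a library, so they do not depend on how a library was scaled. The share of MT-III overlapped between the breeds, with 22.3% ± 2.61 in JH against 19.4% ± 11.0 in LD (SD, n = 3 each).

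**Figure D2:**
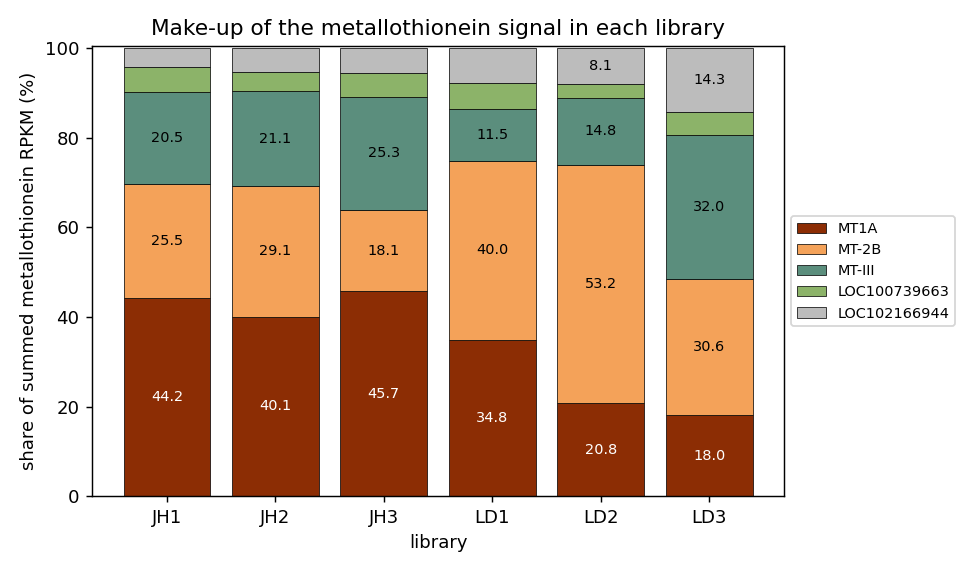
Share of each gene in the summed metallothionein RPKM of a library, in percent, 1 bar per library. MT1A has 40.1% to 45.7% in the JH bars and 18.0% to 34.8% in the LD bars, and MT-2B has 18.1% to 29.1% in JH and 30.6% to 53.2% in LD.

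By mean level per length, the order in JH was MT1A, MT-2B, MT-III, LOC102166944 and LOC100739663. MT-2B and MT-III did not differ beyond the spread of the JH pigs, and neither did the loci. In LD the order was MT-2B, MT1A, MT-III, LOC102166944 and LOC100739663, and across pigs the values of each gene overlapped those of the next. Within each LD pig, however, MT-2B was above MT1A, MT-III above LOC102166944, and LOC102166944 above LOC100739663. MT1A was above MT-III in LD1 and LD2 and below it in LD3. JH2 had the highest value of each of the 5 genes among the JH pigs. Among the LD pigs, LD2 was lowest for all but MT-2B, which was lowest in LD3. The spread of log2 values within a breed was 0.47 to 0.70 (SD) for the 5 genes, against a median of 0.39 over all tested genes and 0.35 over the 160 tested genes with a mean of at least 500 RPKM.

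MTF1, the sensor that activates metallothionein genes, was at 1.88, 1.16 and 2.78 RPKM in JH1, JH2 and JH3. It was at 1.01, 2.05 and 2.04 RPKM in LD1, LD2 and LD3. The breeds overlapped, with means of 1.94 ± 0.82 in JH against 1.70 ± 0.60 RPKM in LD (SD, n = 3 each) and a log2 ratio of 0.16 (SE 0.41). At the shortest length that makes its reads whole, 557 bases, these values rest on 6, 5 and 12 reads in JH and 4, 9 and 9 reads in LD. A longer multiple of that length would mean more reads, so these are minima. Taken as they are, the 95% exact Poisson interval of the 4 reads in LD1 runs from 1.09 to 10.24 and that of the 12 reads in JH3 from 6.20 to 20.96. The intervals of these libraries overlap.

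SLC30A1 moves zinc out of the cell and is the classical target of MTF1 beside the metallothioneins. It was at 10.6, 6.67 and 12.9 RPKM in JH and at 7.51, 4.28 and 4.53 RPKM in LD, in the order of the replicates. JH1 and JH3 were above all LD pigs, but JH2 was below LD1. JH averaged 10.1 ± 3.18 and LD 5.44 ± 1.80 RPKM (SD, n = 3 each), a ratio of 1.85 and a log2 ratio of 0.87 (SE 0.33), on 83 to 246 reads per library. JH2, the JH pig with the highest metallothionein sum, had the lowest SLC30A1 value of its breed. In LD the order of the pigs was the same for both, with LD1 highest, LD3 next and LD2 lowest.

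SLC30A10 belongs to the same family of exporters and is best known for removing manganese from liver cells. It was the only one of the 9 genes whose JH values all lay below the LD values, with 6.97, 9.71 and 8.59 RPKM in JH and 28.9, 22.6 and 12.4 RPKM in LD. The gap between the breeds was narrow, since the lowest LD value was 1.28 times the highest JH value. JH averaged 8.42 ± 1.38 and LD 21.3 ± 8.32 RPKM (SD, n = 3 each), and the LD mean was 2.53 times the JH mean. The log2 ratio was -1.26 (SE 0.33). SLC30A10 was at 0.656, 1.46 and 0.663 times the RPKM of SLC30A1 in JH and at 3.84, 5.27 and 2.74 times in LD. The order of these exporter genes was thus reversed between LD and 2 of the JH pigs.

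SLC39A4 takes zinc into the cell and is known as the importer of the intestine. It was at 6.02, 7.59 and 2.66 RPKM in JH and at 2.37, 5.57 and 1.71 RPKM in LD, on 29 to 126 reads per library. The breeds overlapped, and the mean of JH was 1.69 times that of LD. Within each breed the highest pig was farther from the lowest than that, with 2.86 times in JH and 3.25 times in LD. The log2 ratio was 0.79 (SE 0.49).

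For reference, limma called, at limits of 0.05 on the p adjusted by the Benjamini-Hochberg method and of 1 on the size of the log2 ratio, 2.39% of the tested genes, 1.02% higher and 1.36% lower in JH. Past these limits were 5 of the 9 genes, the metallothionein genes and loci, all higher in JH, and the choice of genes used this contrast, so nothing is read from that count. The values of the breeds did not overlap in 6 of the 9, in 5 with JH above and in 1 with JH below, against 23.4% of all tested genes, 10.8% with JH above and 12.5% with JH below. Without LD1, LOC102166944 was not past the limits, and without LD3 SLC30A10 was past them as well, so that 4 and 6 genes were counted. The log2 ratio of LOC102166944 without LD1 was 2.58 and that of SLC30A10 without LD3 was -1.60.

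**Figure D3:**
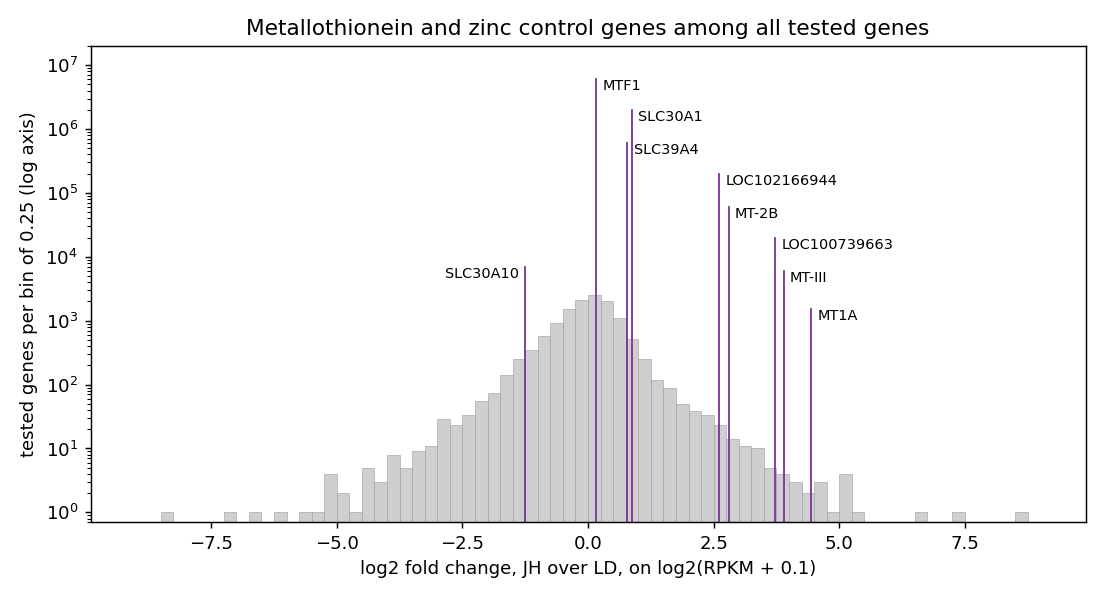
Histogram of the log2 ratio of JH over LD on log2(RPKM + 0.1) for the 12991 tested genes (log axis, bins of 0.25), with a line for each of the 9 genes whose height has no meaning. The metallothionein genes and loci lie in the upper tail, from 2.61 for LOC102166944 to 4.44 for MT1A, SLC30A10 lies at -1.26, and MTF1 lies near the middle at 0.16.

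The zinc transporter families were then taken whole. SLC30A proteins move zinc out of the cytosol and SLC39A proteins move it in. Of 24 genes listed, 23 were in the files and 17 passed the filter on low values. With the 3 chosen genes left out, 14 were tested, and limma called 0 of them at the limits given above. At an unadjusted p under 0.05, 2 of the 14 differed, SLC30A7 and SLC39A11, against 17.9% of all tested genes. On recovered reads, limma's voom called 0 of the 14, against 3.16% of the genes it tested. A p that misses the limit does not show that levels were alike.

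SLC30A7 and SLC39A11 are named for their unadjusted p and lie outside the rule for named genes. SLC30A7, which loads zinc into the Golgi, was at 8.36, 5.88 and 4.52 RPKM in JH and at 4.21, 3.82 and 3.24 RPKM in LD, with a log2 ratio of 0.68 (SE 0.29, limma adjusted p = 0.255). SLC39A11 was at 8.68, 7.37 and 10.8 RPKM in JH and at 19.2, 13.4 and 14.4 RPKM in LD, with a log2 ratio of -0.80 (SE 0.26, limma adjusted p = 0.158). Of the families taken whole, 4 of 6 tested SLC30A genes and 5 of 11 tested SLC39A genes had a log2 ratio above 0. The median log2 ratio was 0.20 for SLC30A and -0.25 for SLC39A, beside 0.04 over all tested genes.

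SLC39A14 was the most abundant importer of the family and takes up zinc, iron and manganese in the liver. It was at 67.7 ± 10.3 in JH against 51.4 ± 4.33 RPKM in LD (SD, n = 3 each), with a log2 ratio of 0.39 (SE 0.23, limma adjusted p = 0.425). SLC39A8, which carries the same metals and lies outside the rule for named genes, was at 34.3 ± 5.88 in JH against 28.9 ± 5.03 RPKM in LD (SD, n = 3 each). By the mean over all 6 libraries the most abundant exporter gene was SLC30A10, while in JH1 and JH3 SLC30A1 was above it.

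SLC30A2, which moves zinc into vesicles, did not pass the filter, but its values stood out and it is named after they were seen. It was at 0.355, 4.82 and 4.30 RPKM in JH and at 0.128, 0.258 and 0.229 RPKM in LD. JH2 and JH3 had 165 and 147 reads, while JH1 had 9 and the LD pigs had 4, 9 and 8. JH1 was close to the LD pigs though still above them, and with no filter on low values the log2 ratio was 2.84 (SE 0.86, limma adjusted p = 0.185).

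**Figure D4:**
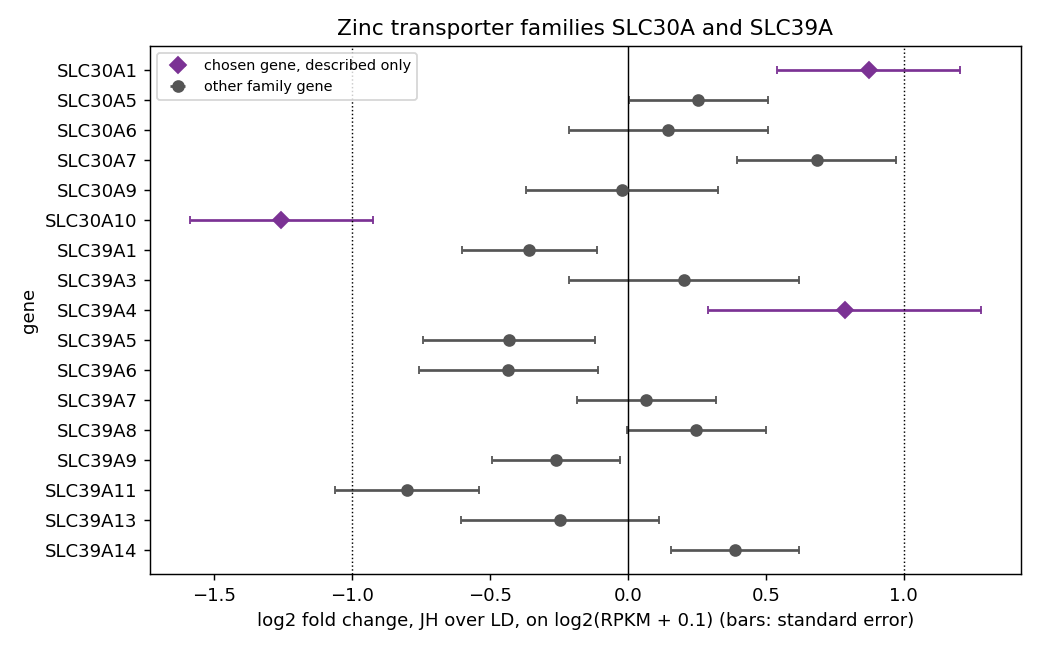
Log2 fold change of JH over LD with its standard error for the 17 tested SLC30A and SLC39A genes, dotted lines at the fold change limit, diamonds for the 3 genes of the chosen set. SLC30A10 at -1.26 is the only gene beyond a dotted line, and SLC39A11 at -0.80 is the lowest of the other genes.

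Of 16 tested genes for zinc enzymes and zinc binding proteins, limma called 1, HRG, lower in JH, and 9 had an unadjusted p under 0.05. Log2 ratios were above 0 in 5 of the 16 and below 0 in 11, with a median of -0.27. Of the 14 with recovered reads voom called 2, HRG and the pyrimidine breakdown gene DPYS, the latter with a log2 ratio of -1.55 in limma (SE 0.36, limma adjusted p = 0.0614, voom adjusted p = 0.0291). With the replicate block DPYS was called in limma as well (adjusted p = 0.0384). HRG is a plasma protein made in the liver that binds zinc and heme. It was at 1210.02, 899 and 969 RPKM in JH and at 4739, 4641 and 5591 RPKM in LD, with no overlap and a log2 ratio of -2.29 (SE 0.25, limma adjusted p = 0.00353). HRG was called in all 6 fits that each left out 1 library. ALB and A2M, other plasma carriers of zinc named after their values were seen, were at 29866 ± 3267 and 602 ± 108 (SD, n = 3) RPKM in JH and at 47923 ± 8861 and 1095 ± 114 (SD, n = 3) RPKM in LD, and neither was called (adjusted p = 0.258 and 0.114 from limma). In 10 of the 16 genes the values of the breeds did not overlap, against 23.4% of all tested genes. Most of the 10 had all JH values below the LD values. Among those are genes not named here that were not called, with log2 ratios larger in size than that of HRG. Only ADH5, SOD1 and SORD, also named after their values were seen, had all JH values above the LD values, and they were not called. Their log2 ratios were 0.72 (SE 0.25), 0.71 (SE 0.26) and 0.61 (SE 0.26), with limma adjusted p of 0.177, 0.194 and 0.263.

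Metallothioneins also bind copper. Besides MT1A, 12 copper handling genes were tested, and limma and voom each called 0 of them. With MT1A counted, 7 of 13 had an unadjusted p under 0.05, against 17.9% of all tested genes, and log2 ratios were above 0 in 8 and below 0 in 5. MT1A is among the 7 and the 8, and it was chosen on this contrast, so its place in these counts is no result. The other copper handling genes whose JH and LD values did not overlap are named after their values were seen. The copper chaperone genes COX17 and CCS had log2 ratios of 0.99 (SE 0.27, limma adjusted p = 0.107) and 0.79 (SE 0.25, limma adjusted p = 0.143), with all JH values above the LD values. SOD1, given above, and CUTC (log2 ratio 0.63, SE 0.27, limma adjusted p = 0.264) also had all JH values above the LD values. CP, the copper carrier of plasma, and SLC31A2 had log2 ratios of -0.76 (SE 0.27, limma adjusted p = 0.183) and -0.78 (SE 0.28, limma adjusted p = 0.192), with all JH values below the LD values.

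Genes around the metallothionein cluster in mammals could be tested in 3 cases, and limma called 0 of 3, with 0 at an unadjusted p under 0.05 and 0 by voom. The largest log2 ratio among them was that of ARL2BP, with 0.61 (SE 0.31, limma adjusted p = 0.343). NUP93, the gene next to MT1A, is listed at 0 in all libraries, as are some other genes that every cell uses, so a listed 0 is not read as absence.

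Other known inducers of metallothioneins were followed through their own response genes. Of 10 tested glucocorticoid response genes limma called 0, with 2 at an unadjusted p under 0.05 and 1, FKBP5, by voom (adjusted p = 0.0441). FKBP5 was at 29.9, 16.3 and 30.4 RPKM in JH and at 4.96, 5.07 and 15.4 RPKM in LD, with a log2 ratio of 1.74 (SE 0.45, limma adjusted p = 0.092). Without LD3 FKBP5 was called, with a log2 ratio of 2.27 (adjusted p = 0.0227 from limma). KLF9, the other gene at an unadjusted p under 0.05 and named after its values were seen, was on average lower in JH, with overlap. Its log2 ratio was -1.35 (SE 0.56, limma adjusted p = 0.253). Over the 10 genes, log2 ratios were above 0 in 6 and below 0 in 4, with a median of 0.08. Of 15 tested genes of the acute phase and of interleukin 6 signalling, 1 was called, the iron hormone gene HAMP, higher in JH with a log2 ratio of 4.58 (SE 0.80, limma adjusted p = 0.0269). HAMP was not called without JH1 (adjusted p = 0.0629), without JH2 (adjusted p = 0.0612) or with the replicate number as a block (adjusted p = 0.0596, all from limma). In this list 5 had an unadjusted p under 0.05, voom called HAMP alone of the 12 with recovered reads, and log2 ratios were above 0 in 6 and below 0 in 9, with a median of -0.12. SAA4, LBP and IL6R, named after their values were seen, had all JH values below the LD values and were not called, with log2 ratios of -4.97 (SE 1.85), -2.03 (SE 0.72) and -0.96 (SE 0.28) and limma adjusted p of 0.201, 0.184 and 0.121. LCN2, also named after its values were seen, was on average higher in JH, with overlap. Its log2 ratio was 2.60 (SE 0.97, limma adjusted p = 0.201). Of 8 tested genes of the oxidative stress response limma called 0, with 2 at an unadjusted p under 0.05 and 0 by voom. Those 2 went in opposite directions, and over the 8 genes log2 ratios were above 0 in 5 and below 0 in 3, with a median of 0.10. The log2 ratio largest in size was that of NQO1 with -1.08 (SE 0.60, limma adjusted p = 0.389), with overlap of the breeds.

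The genes whose pattern over the 6 libraries was most like that of MT1A, by Pearson's r of log2(RPKM + 0.1), were BZW2 (r = 0.995), PSMD12 (r = 0.993), LOC100621250 (r = 0.992), LOC100739663 (r = 0.988) and B3GNT5 (r = 0.988). The 6 points fall into a JH and an LD cluster, and 108 tested genes had an r of at least 0.95. Among the other metallothioneins r was 0.971 for MT-2B, 0.944 for MT-III and 0.940 for LOC102166944. After the breed mean was subtracted from each value, r with MT1A was 0.82 for LOC100739663, 0.50 for MT-2B, 0.34 for LOC102166944 and 0.06 for MT-III. The highest values were then those of LOC100627275, MDP1, LOC100738482, FAM200B and DENND4C, with r between 0.991 and 0.999, and 78 genes had an r of at least 0.95. Libraries share their scaling across genes, and with 3 pigs per breed these values are a description only.

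The tissue is liver by its markers, with ALB at 27533 to 53893 RPKM. Of 7 tested hepatocyte markers limma called 0, and voom called 0 of the 4 whose reads were recovered. At an unadjusted p under 0.05 were 4 of the 7, against 17.9% of all tested genes. In 5 of the 7 the breeds did not overlap, against 23.4% of all tested genes. Log2 ratios were above 0 in 2 and below 0 in 5, with a median of -0.40. The largest log2 ratio was that of TF with -1.13. Of 7 tested markers of stellate cells and fibroblasts 2 were called lower in JH (COL1A1 and COL3A1) and 3 by voom (also PDGFRB, voom adjusted p = 0.0428). All 7 had a log2 ratio below 0 and 5 had an unadjusted p under 0.05, with summed levels of 71.4 to 83.2 RPKM in JH and 167 to 331 RPKM in LD. Of 3 tested biliary markers 1 was called lower (EPCAM), also by voom, and all 3 had an unadjusted p under 0.05 and a log2 ratio below 0, with sums of 7.08 to 15.7 RPKM in JH and 15.1 to 35.2 RPKM in LD. Of 3 tested erythroid markers 1 was called lower (HBB), also by voom, and again all 3 had an unadjusted p under 0.05 and a log2 ratio below 0, with sums of 92.3 to 124 RPKM in JH and 216 to 398 RPKM in LD. No marker of these 3 lists that the files hold was at 0 in all libraries. COL3A1 was not called without LD1 or LD2 (adjusted p = 0.0812 and 0.0674), and EPCAM and HBB were called in 1 of the 6 fits without a library, that without JH3 (adjusted p = 0.0435 and 0.0423, all from limma). With no filter on low values neither EPCAM nor HBB was called (limma adjusted p = 0.0592 and 0.0673), and HBB was not called with the replicate block either (limma adjusted p = 0.0526). Among 6 endothelial and 8 macrophage and lymphocyte markers limma called 0, with 2 and 1 at an unadjusted p under 0.05 and 0 by voom, and the largest log2 ratios were those of KDR with -0.91 and CSF1R with 1.23. All 6 endothelial markers had a log2 ratio below 0, with a median of -0.57. Of the macrophage and lymphocyte markers 6 had a log2 ratio above 0 and 2 below 0. The collagen, biliary and erythroid markers differed between the breeds beside the metallothioneins, and their part in the metallothionein difference was not tested. In bulk tissue, fewer cells of a type and less RNA per cell cannot be told apart. The ribosomal RNA gene RN18S was at 5991, 1570.29 and 62257 RPKM in JH and at 7309, 2108.1 and 20160 RPKM in LD, in the order of the replicates. In both breeds it was highest in replicate 3 and lowest in replicate 2. Without JH3 the mean metallothionein sum of JH was 12.5 times that of LD, and without LD3 it was 12.6 times.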

How the data were processed

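The authors cleaned single-end reads and mapped them with TopHat2 (2.0.13 in the submitters' processing notes) to a Sus scrofa build older than Sscrofa11.1. Gene reads were counted in gfold, and the authors deposited 1 RPKM value for each gene and library. The annotation used for counting is not given in the sources used here. RPKM depend on the gene model and on shared reads of close copies. The small RNA libraries were not used here, and 1 identifier listed repeatedly was left out.

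Libraries were grouped by their titles. JH and LD were compared in limma 3.58.1 (R 4.3.3), using a variance trend in eBayes and log2(RPKM + 0.1) as input. Genes had to reach 0.5 RPKM in 3 or more libraries, with Benjamini-Hochberg adjustment over all 12991 genes. Fold changes on this scale understate low genes. The design allowed for counts, and since the deposited unit is RPKM the limma branch was used. The study used DEGseq. With 3 pigs against 3, an exact permutation p of a single gene cannot fall below 0.1.

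Reads were recovered in Python 3.11.15 by searching the library totals, and for each gene the shortest length from 50 bases, that turn its 6 values into whole reads. This worked for 16831 of 16869 genes above 0 in at least 3 libraries (99.8%), and a longer multiple of a length cannot be told apart from it. When tested on simulated data of 3000 genes, 2916 were resolved, 98.9% of them exactly. The limma script was tested on simulated data of 12991 genes, with 129 of 200 genes changed by a log2 value of 2 called, 4 false calls, and 0 calls with no change.

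The genes and lists were chosen with earlier results of these data known. Named are the 9 genes, transporters past the limits or highest in their family, list genes past the limits or, where there was none, the one with the largest change, and the 5 genes most like MT1A. Genes named outside this rule are marked or were called by voom. Alternatives were other pseudocounts and filters, quantile normalization, median scaling, no fold change limit, the replicate block, each library left out in turn, and the sum without the unnamed loci. Reads of some abundant genes, ALB, TF, APOA1, HP, FGA, FGG and A2M among them, were not recovered, and read numbers are minima. The voom fit on recovered reads was added after the data were seen. The values of 1 gene of the lists are not reported here.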

Additional observations from a re-analysis of the deposited data

How the results depend on the processing

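Other pseudocounts, quantile normalization, median scaling and voom moved the log2 fold changes of the 9 genes by less than the spread between pigs. Leaving out 1 of 3 pigs cannot move them by more than this spread, and the replicate block leaves them unchanged. Those settings therefore do not test their size. The log2 fold change of MTF1 changed sign, to -0.13 without JH3 and -0.15 without LD1. The 5 metallothionein genes and loci stayed past the limits under every alternative run except LOC102166944 without LD1. The number of the 9 genes past the limits was 4 to 6 with a library left out and 6 under quantile normalization, where SLC30A10 was added. The number of zinc transporters called was 0 as reported, 1 (SLC30A10) under quantile normalization, and 0 to 1 with a library left out. The ratio of the metallothionein sums, 11.8, was 10.1 to 12.8 with a library left out, 12.5 without the unnamed loci and 11.4 under median scaling. Over all genes limma called 310, and 199 with a pseudocount of 0.01, 200 with no filter on low values and 79 to 406 with a library left out (79 without LD1, 114 without LD2, 149 without LD3, 150 without JH2, 164 without JH1). With no fold change limit the count was also 310.

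JH and LD share replicate numbers, but the labels do not pair the pigs by them. After breed means were subtracted, same-numbered libraries had an r across genes of -0.02, 0.05 and 0.18. Differently numbered libraries had an r of -0.13 to 0.08, so the highest value was that of JH3 with LD3. RN18S also had the same order of replicate numbers in both breeds, highest in number 3 and lowest in number 2. So few values cannot exclude a batch shared by number. With the replicate block 253 genes were called, 200 of them among the 310, and the same 5 of the 9 genes were past the limits. Depth limits MTF1 most, with 4 to 12 reads per library at the shortest length.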
